A study of Mus musculus with 4 samples.

Results

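The genes described here are 7 receptors of the tumour necrosis factor (TNF) receptor superfamily and 1 adaptor that is recruited to some of them. They are Tnfrsf4 (OX40), Tnfrsf18 (GITR), Tnfrsf9 (4-1BB), Tnfrsf1a (TNFR1), Tnfrsf1b (TNFR2), Tnfrsf14 (HVEM), Cd27 and Traf1. Their peaks were taken from a deposited list of Trim33 binding regions by position alone: the summit, the base of highest signal, had to lie in the gene body or within 10 kb of it, an interval called the locus here. This gave 24 of the 27050 peaks in the list. The loci of Tnfrsf4 and Tnfrsf18, which are neighbours on chromosome 4, share 2 of them, so there are 26 pairs of a gene and a peak.

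The data come from chromatin immunoprecipitation followed by sequencing (ChIP-seq), in which an antibody pulls down a protein with the DNA it sits on. The libraries were 2 Trim33 ChIP libraries, made with a Trim33 antibody (Bethyl A301-060A), and 2 input DNA libraries with no antibody, all from C57BL/6 mice. The cells were primary T helper 17 (Th17) cells, a CD4 subset named for its cytokine IL-17. They were grown in vitro from naive CD4 T cells of spleen and lymph nodes on plates coated with anti-CD3 and anti-CD28, with IL-6, TGF-beta and antibodies to IL-4 and IFN-gamma. Every library therefore came from cells stimulated through CD3 and CD28, and no unstimulated, Trim33-deficient or other T cell sample was analysed here.

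Trim33 is a chromatin-associated ubiquitin ligase known as a partner of the SMAD proteins that carry TGF-beta signals. Receptors of the TNF receptor superfamily are cell surface proteins that, once bound by their ligands, recruit TRAF adaptors and switch on NF-kB and MAP kinases. On T cells OX40, GITR, 4-1BB and CD27 give a second, costimulatory signal beside that of the T cell receptor, which supports survival, division and cytokine production. TNFR1 and TNFR2 both bind TNF, and TNFR1 carries a death domain through which it can also trigger cell death.

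The peak list was called on the merged replicates, so each peak has 1 value and no spread between cultures can be given. Depth per library is unknown here. The main value is the authors' fold enrichment, the ChIP signal at the summit over its background, and the −log10 of the q-value gives the authors' confidence in the peak. Over all 27050 peaks the fold had quartiles of 4.87 and 7.76 and a median of 6.00, and the −log10 q had a median of 11.2. All comparisons below are descriptions of this list and carry no test. The cell type can be set only against where peaks lay, since expression was not measured: Il17a, Il17f, Ccr6 and Il23r, which mark Th17 cells, had highest locus folds of 12.4, 16.0, 8.86 and 8.85. No summit lay in the loci of Ms4a1 and Cd79b, B cell markers, nor of the myeloid Csf1r, Lyz2 and Cebpa.

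One peak covered sequence that can be shown, because it lay on an annotated start site. Tnfrsf9 has 2 start sites in the RefSeq promoter table (GRCm38.p6, the assembly also called mm10), 7844 bp apart on the plus strand. Both windows are printed from 250 bases before the start to 29 bases after it, and positions below are distances from the start, which is base 0. Capitals mark the bases that lie in a deposited Trim33 peak, and they show that the upstream start was not covered while the downstream, internal start was. The first window is chr4:150919905-150920184 and the second chr4:150927749-150928028.
Tnfrsf9 upstream start: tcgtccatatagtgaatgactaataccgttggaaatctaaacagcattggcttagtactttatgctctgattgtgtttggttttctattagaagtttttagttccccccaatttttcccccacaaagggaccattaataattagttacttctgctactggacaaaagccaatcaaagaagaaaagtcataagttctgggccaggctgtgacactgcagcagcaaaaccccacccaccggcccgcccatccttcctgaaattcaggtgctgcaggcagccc
Tnfrsf9 internal start: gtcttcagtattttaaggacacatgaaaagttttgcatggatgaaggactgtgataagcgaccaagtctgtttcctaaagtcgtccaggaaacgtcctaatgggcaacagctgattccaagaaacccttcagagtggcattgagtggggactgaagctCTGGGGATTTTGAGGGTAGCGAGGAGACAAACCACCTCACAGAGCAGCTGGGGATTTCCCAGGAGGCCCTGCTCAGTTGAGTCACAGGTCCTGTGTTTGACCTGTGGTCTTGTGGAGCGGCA

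The peak at the internal start ran from 92 bases before it to 45 bases after it (chr4:150927907-150928044), with the summit 9 bases after the start. Its fold was 4.50 and its −log10 q 6.76, both under the medians of the list, and at 138 bp it was as narrow as the narrowest peak deposited. Short motifs were then searched on both strands in the whole promoter windows, the 250 bases before each start and the first 50 from it. Of the 8 motifs searched, the internal start held 5, whereas the upstream start held 1 and the windows of the other members 1 or 2. Of all 21263 promoter windows of protein-coding genes, 0.546% held 5 or more, a count chosen after this window had been seen. Within the capitals lay the AP-1 motif TGANTCA, as TGAGTCA from base −15 to −9, which 6.99% of all windows hold. They also held the NF-kB pattern of GGG and CC around any 5 bases, as GGGGATTTCC from base −43 to −34 and, shifted by 1 base, as GGGATTTCCC; 57.0% of windows have that loose pattern. The RUNX motif TGTGGT lay at bases 10 to 15 (15.0% of windows) and the ROR receptor motif AGGTCA, on the minus strand, at bases 5 to 10 (14.7%), the last overlapping the RUNX match by 1 base. The STAT pattern TTCNNNGAA lay at bases −136 to −128 and thus outside the peak (7.69% of windows). The other motifs searched were SMAD CAGACA (18.9% of windows), ETS AGGAAGT (9.07%) and NFAT TGGAAA (19.3%), and none of these letters was in this window. A match of this kind is a run of letters and does not show that a factor binds there.

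Trim33 was found around 7 of the 8 genes, and 53.9% of the 21887 protein-coding genes had at least 1 summit in the locus. The exception was Tnfrsf1a. In 2 genes, Tnfrsf9 and Tnfrsf1b, the locus held 6 summits, which 3.10% of protein-coding genes reached or passed. Tnfrsf4 and Tnfrsf18 had 4 summits each, Traf1 had 3, Tnfrsf14 had 2 and Cd27 had 1. The loci ran from 22573 bp (Tnfrsf18) to 54503 bp (Tnfrsf1b), so the genes with 6 summits were also those with the longest loci, at percentiles 61.7 and 69.1 of all loci by length. Tnfrsf4, with a locus at percentile 15.6, reached 4 summits, as 8.96% of genes did or passed. Tnfrsf1a, at percentile 42.2, had none.

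**Figure D1:**
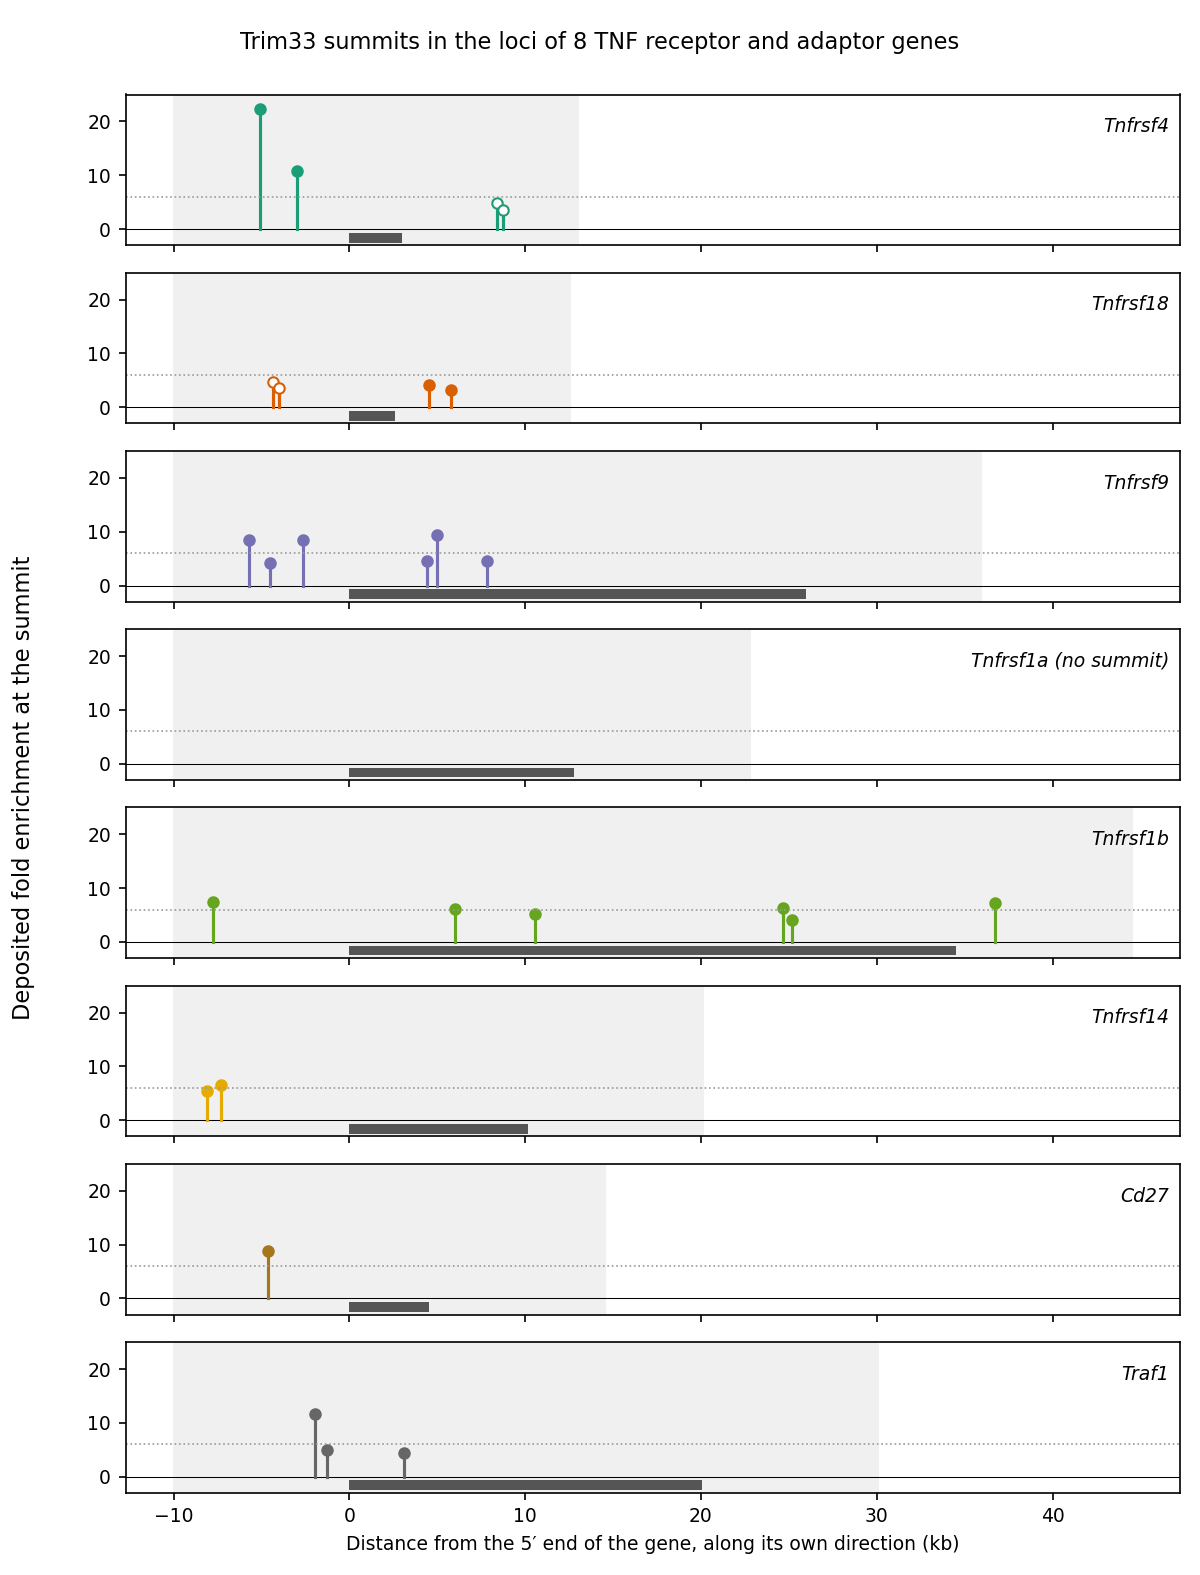
Each panel shows 1 gene (dark bar) drawn from its 5′ end in its own direction, with the locus in grey, and each stem is a Trim33 summit with the deposited fold enrichment as its height; the dotted line is the median fold of all peaks, and open circles are the 2 summits shared by Tnfrsf4 and Tnfrsf18. The tallest stem is 22.3-fold at 5082 bp before Tnfrsf4, and the stems of Tnfrsf18 all lie under the dotted line.

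The summits lay away from the ends of the genes. Of the 26 pairs of a gene and a peak, 13 had the summit upstream of the gene, 8 inside it and 5 downstream. None of the 8 genes had a summit within 1000 bp of either of its ends, a feature of 33.4% of protein-coding genes. Counting every start in the promoter table, 1 of the 8 genes had a summit within 1000 bp of a start, the internal one of Tnfrsf9, against 34.8% of the 17492 protein-coding genes in that table. Distal summits, meaning those with no end of a protein-coding gene within 1000 bp, were found in 7 of the 8 loci and in those of 31.4% of protein-coding genes. In 6 of the 7 genes with a summit the highest one lay upstream of the gene. Among the protein-coding genes of the promoter table with a locus summit, 34.3% had the highest one upstream. Tnfrsf9 was the exception, with its highest summit inside the gene.

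Of the 24 peaks, 8 had their summit inside the gene they were assigned to, and 2 lay inside another protein-coding gene, giving 10 of 24 inside any protein-coding gene, where 53.9% of all peaks lay. A further 6 lay in a long non-coding RNA (lncRNA) gene only, and 8 in no gene of the table. Summits came in close groups: 10 of the 24 had another summit within 1000 bp, as 19.6% of all peaks did. The closest were 334 bp apart, between Tnfrsf4 and Tnfrsf18, followed by 517 bp in Tnfrsf1b and 564 bp in Tnfrsf9.

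In height the 24 peaks spread over most of the list. Their fold ran from 3.29 to 22.3 with a median of 5.76, close to the 6.00 of all peaks. Peaks of 10-fold or more numbered 3 of 24, where 11.1% of all peaks were that high. They lay at 2 genes, Tnfrsf4 and Traf1, and 10.1% of protein-coding genes had such a peak in the locus. Under the lower quartile of the whole list lay 9 of the 24, and over its upper quartile 7.

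**Figure D2:**
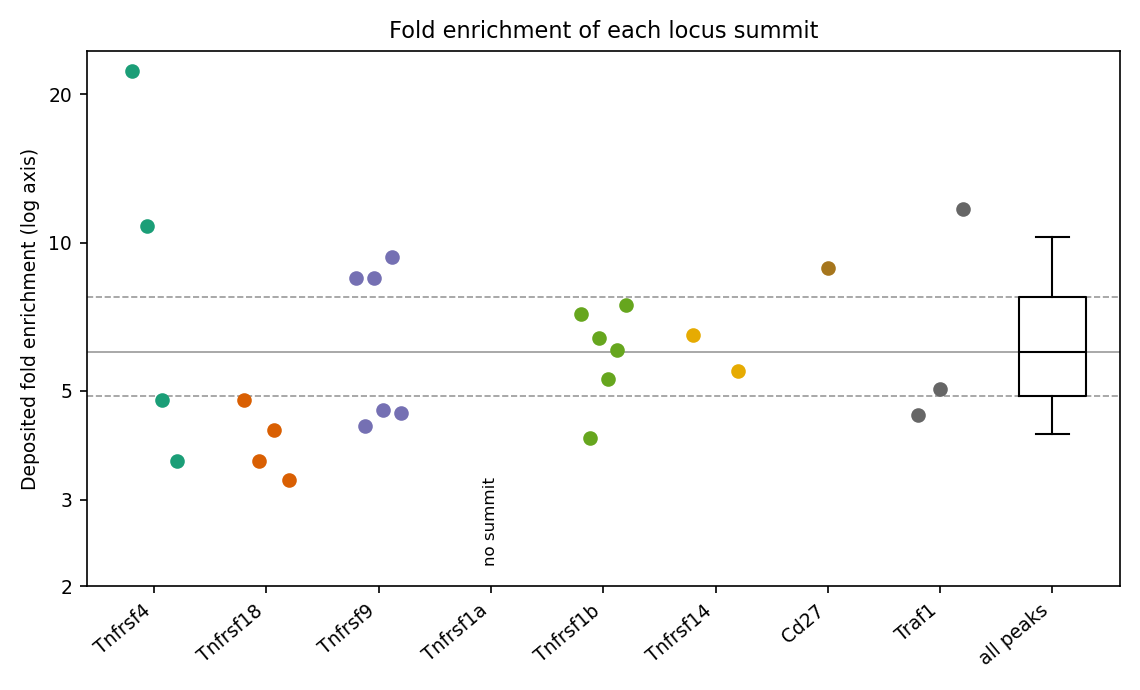
Deposited fold enrichment (log axis) of every summit in each locus, with 1 point per summit and no replicates; the box at the right gives the quartiles of all 27050 peaks with whiskers at percentiles 10 and 90, and grey lines carry its quartiles across. Tnfrsf4 spans 3.60 to 22.3, all points of Tnfrsf18 lie under the lower quartile of 4.87, and Tnfrsf1a has no summit.

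Among the receptors that give T cells a costimulatory signal, Tnfrsf4 had the highest peak of all 8 genes. OX40, its product, appears on T cells after activation. The gene (gene ID 22163) lies on the plus strand at chr4:156013595-156016613. Its highest peak, chr4:156008083-156008724, had a fold of 22.3 and a −log10 q of 95.0, ranking 91 of 27050 by fold and 94 by q. At 642 bp it was also the widest of the 24, against a median width of 227 bp in the list. This summit lay 5082 bp before the gene, and a further peak of 10.8-fold, chr4:156010427-156010747, lay 2968 bp before it, with a −log10 q of 31.2 and rank 2262.

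Both of these peaks lay inside Sdf4, the gene next to Tnfrsf4, which codes for a calcium-binding protein and shares 16 bp with the start of Tnfrsf4. Sdf4 is read in the same direction and starts farther away. The nearest start of Sdf4 was 15176 bp and 17290 bp from the 2 summits, and the start of Tnfrsf4 5182 bp and 3068 bp. Counted by the nearest start they belong to Tnfrsf4, and counted by the nearest gene body they belong to Sdf4, which leaves Tnfrsf4 with 0 summits. Which gene they act on was not tested.

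Between Tnfrsf4 and Tnfrsf18 lie 9708 bp, and the 2 summits in that interval were low. Their folds were 4.79 and 3.60, with −log10 q of 7.92 and 5.41, at chr4:156021912-156022074 and chr4:156022144-156022444. They lay 5365 and 5699 bp after Tnfrsf4, and 4344 and 4010 bp before Tnfrsf18. Both were inside Gm16008, an lncRNA gene that runs over Tnfrsf18.

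Tnfrsf18 codes for GITR, a receptor present at high level on regulatory T cells and raised on activated ones. The gene (gene ID 21936) lies on the plus strand at chr4:156026322-156028894. Beside the 2 shared summits it had 2 after the gene, of 4.16-fold at 1934 bp and 3.29-fold at 3220 bp. The first was inside Gm16008, and the last lay nearer to the body of Ttll10, 2721 bp away, than to Tnfrsf18. All 4 folds at Tnfrsf18 were under the lower quartile of the list, with ranks from 20787 to 26414. The neighbours thus had 4 summits each, but highest folds of 4.79 at Tnfrsf18 and 22.3 at Tnfrsf4.

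Tnfrsf9 codes for 4-1BB, a receptor induced by T cell activation. The gene (gene ID 21942) lies on the plus strand at chr4:150920155-150946104. It carried summits on both sides of its upstream start, 3 before it and 3 inside the gene, and none in the last part of the gene or after it. Those before it, in the direction of transcription, had 8.48-fold at 5715 bp, 4.23-fold at 4511 bp and 8.48-fold at 2646 bp. Those inside had 4.56-fold at 4420 bp, 9.34-fold at 4984 bp and 4.50-fold at 7853 bp from the upstream start, the last being the peak at the internal start.

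The locus of Tnfrsf9 had 3 peaks over the upper quartile of the list, more than any of the other 7 genes, though none reached 10-fold. The 2 peaks of 8.48-fold, chr4:150914209-150914741 and chr4:150917373-150917678, were 3069 bp apart and equal in fold, −log10 p (31.7) and −log10 q (27.7). Such ties carry little information, since 92.3% of all peaks share all 3 values with another peak. The 3 highest peaks of Tnfrsf9 stood higher by q than by fold: the highest, chr4:150924938-150925312, ranked 1903 by q and 3777 by fold, and those of 8.48-fold 3052 and 5159. The peak of 4.56-fold ranked 22208 by q and 22161 by fold. The first of the 3 upstream summits lay nearer to the body and the start of Park7, 4519 bp away, than to Tnfrsf9.

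Cd27 codes for a receptor that naive T cells already carry and that binds CD70. The gene (gene ID 21940) lies on the minus strand at chr6:125232620-125237136. Its only summit, of 8.86-fold with a −log10 q of 25.8, lay 4636 bp before the gene at chr6:125241622-125241893, in no annotated gene. It ranked 4462 of 27050 by fold, and its fold was over the upper quartile.

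Tnfrsf14 codes for HVEM, which binds the TNF family ligand LIGHT and the inhibitory receptor BTLA. The gene (gene ID 230979) lies on the minus strand at chr4:154918487-154928620. Its 2 summits were 777 bp apart and both far before the gene, 6.49-fold at 7320 bp and 5.48-fold at 8097 bp, with −log10 q of 11.3 and 10.8. These folds lay on either side of the median of the list. No summit lay inside Tnfrsf14 or after it within the locus.

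The receptors for TNF itself had 6 summits and none. Tnfrsf1b, which codes for TNFR2, the form found mainly on blood cells, had 6 summits along the minus strand (gene ID 21938, chr4:145212368-145246870). Their folds ran from 4.01, under the lower quartile of the list, to 7.48, under its upper quartile. The highest was 7.48-fold at 7776 bp before the gene, inside the lncRNA gene Gm36233, and 4 lay inside Tnfrsf1b. Those inside had folds of 6.04, 5.28, 6.40 and 4.01 at 6025, 10545, 24683 and 25200 bp from the start, and the last summit, 2201 bp after the gene, had 7.17-fold. Fold and q did not order these peaks alike, as the 7.17-fold summit had a −log10 q of 12.4 and the 6.40-fold summit one of 16.8.

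Tnfrsf1a, which codes for the death domain receptor TNFR1 found on most cell types, had no summit in its locus (gene ID 21937, plus strand, chr6:125349723-125362483). The nearest summits lay 84.2 kb below the gene and 56.5 kb above it, the upper of 8.66-fold. They bound a stretch of 153464 bp with no summit, against a median gap between neighbouring summits of 19980 bp, and 9.89% of all gaps were at least as long. Each gap was counted once whatever its length, so this share does not give how often a gene lies in so long a gap. This stretch holds 5 protein-coding genes in full, among them Ltbr, which codes for the lymphotoxin beta receptor, beside Tuba3a, Scnn1a, Tnfrsf1a and Plekhg6. No summit was listed there, and since the depth is unknown, this does not show that Trim33 was absent.

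Traf1, the adaptor, is known as a target of NF-kB and is recruited to 4-1BB, OX40 and TNFR2 among others. The gene (gene ID 22029) lies on the minus strand at chr2:34941750-34961812. It had the highest peak after Tnfrsf4, of 11.7-fold with a −log10 q of 34.2, at chr2:34963371-34963944 and 1950 bp before the gene. That peak ranked 1644 by fold and was 574 bp wide. A summit of 5.03-fold lay 1289 bp before the gene and one of 4.47-fold inside it, 3097 bp from its 5′ end. All 3 lay inside the lncRNA gene Gm52552, which overlaps the start of Traf1, and the summit nearest to Traf1 on the outside was also inside the lncRNA gene Gm46733.

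**Figure D3:**
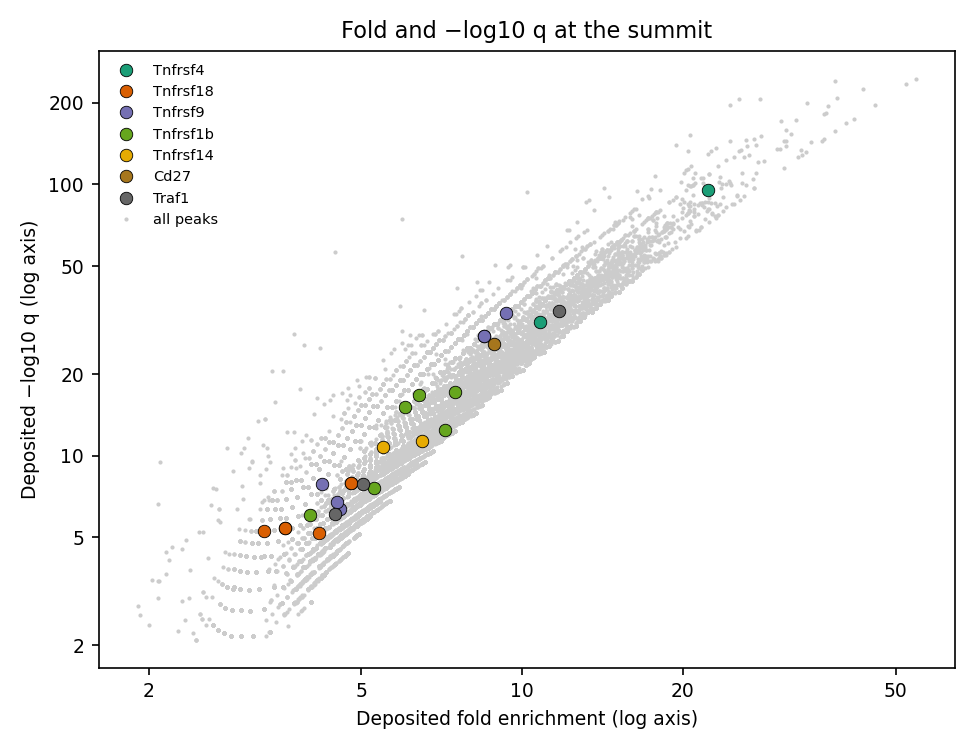
Deposited fold enrichment against the deposited −log10 q (both log axes) for all 27050 peaks (grey) and the 24 peaks of the 7 genes that had any (coloured by gene; the shared summits carry the colour of Tnfrsf18). The highest Tnfrsf4 peak stands apart at 22.3-fold and a −log10 q of 95.0, and the Tnfrsf9 peaks of 8.48- and 9.34-fold lie towards the upper side of the grey cloud.

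The distance limit of 10 kb left close neighbours out. Just outside it lay a summit of 5.16-fold at 10388 bp from Tnfrsf9, one of 5.57-fold at 10784 bp from Tnfrsf1b and one of 6.44-fold at 11592 bp from Tnfrsf14. The farthest summits inside it were at 5715, 7776 and 8097 bp from these genes. For Tnfrsf18 the next summits outside were those of Tnfrsf4, the nearer of 10.8-fold at 15695 bp. For Cd27 the next lay at 15703 bp (3.96-fold) and for Traf1 at 15545 bp (5.67-fold). With 50 kb on each side the 8 loci held 45 summits, and Tnfrsf1a still had none.

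Other genes of the pathway were counted in the same loci. Of 21 other TNF receptor superfamily genes, 13 had a locus summit and 8 had one within 1000 bp of a gene end. Over all protein-coding genes the shares were 53.9% and 33.4%, so these counts were near those of any gene. The highest were near Tnfrsf25 (DR3, a receptor for TL1A) with 13.6-fold inside the neighbour Espn, Tnfrsf19 with 13.2-fold at 9337 bp outside the gene, and Tnfrsf13b (TACI, found on B cells) with 11.9-fold at 6004 bp outside. No summit was listed for 8 of them, among them Cd40, Eda2r and Ltbr. Tnfrsf8 (CD30), next to Tnfrsf1b on chromosome 4, had 10.3-fold at 86 bp from its start and was picked after its value had been seen.

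Of 10 ligands and binding partners of the receptors, 7 had a locus summit and 5 had one at a gene end, against 53.9% and 33.4% of all protein-coding genes. Tnfsf9, the ligand of 4-1BB, had 15.2-fold at 1230 bp outside the gene, and Tnfsf14, which codes for LIGHT, had 11.4-fold at 4403 bp outside. The neighbours Tnf and Lta shared a peak of 10.8-fold. The ligand of OX40, Tnfsf4, had 1 summit of 7.22-fold, picked as the partner of the gene with the highest peak. No summit was listed for the ligands of GITR and CD27, Tnfsf18 and Cd70, nor for Cd160, another partner of HVEM.

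Of 17 adaptors and kinases downstream, 16 had a locus summit and 13 had one at a gene end, while none of the 8 genes described here had one at an end. Among all protein-coding genes, 53.9% had a locus summit and 33.4% had one at an end. Birc3, which codes for a ubiquitin ligase that TRAF proteins recruit, had 17.2-fold at 119 bp from a start and inside the gene. Map3k14, the NF-kB-inducing kinase, had 12.6-fold and Tnip1, which codes for an inhibitor of NF-kB signalling, 12.4-fold, both inside their genes. Traf7 was the gene with no summit. The median of the highest folds in loci with a summit was 8.86 for the 8 genes, 7.42 for the other receptors, 10.8 for ligands and partners and 7.46 for adaptors and kinases. In these medians a peak shared by neighbouring genes was counted for each of them. The 10.8 was the peak shared by Tnf and Lta, and the 7.42 that shared by Tnfrsf22 and Tnfrsf26. The lists were not compared by a test, and they differ in locus length, with medians of 31400, 40200, 24200 and 45700 bp in that order.

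**Figure D4:**
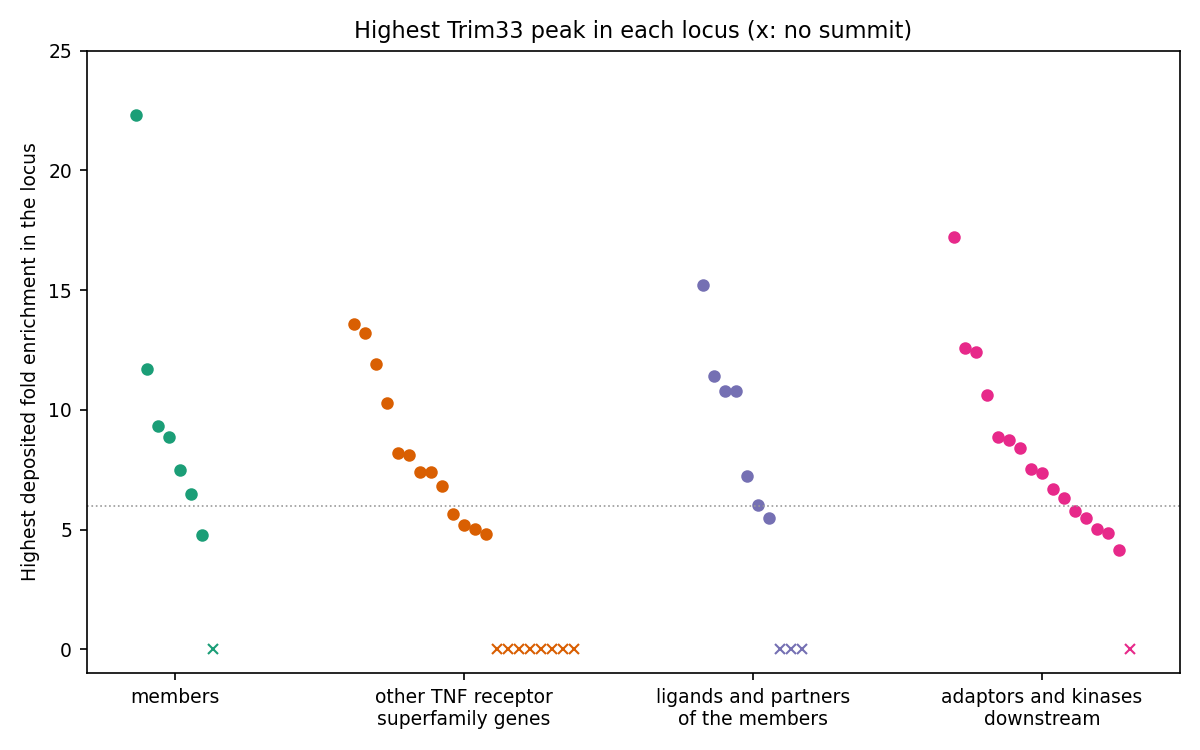
Highest deposited fold enrichment in the locus of each gene, for the 8 genes described here (members) and for 3 lists of genes of the pathway. Crosses at 0 are genes with no summit, and the dotted line is the median fold of all peaks. That line counts every single peak, whereas each point is the highest of its locus, so it is no baseline for the points. The members hold the highest point, Tnfrsf4 at 22.3, and crosses number 1 of 8, 8 of 21, 3 of 10 and 1 of 17 from left to right.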

How the data were processed

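Trim33 ChIP and input libraries of Th17 cells were processed by the authors with MACS2 2.1.1.20160309, Bowtie 1.2.1.1 and Trim Galore 0.3.7 on the build mm10, per the submitters' processing notes. The sources used here do not give settings, threshold or control. The deposited list, called on merged replicates per its name, gives for each peak the authors' fold (a ratio), −log10 p, −log10 q and a score, the last not used.

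Summits were placed on RefSeq genes of GRCm38.p6. Strand, starts and sequence came from a RefSeq promoter table holding all 8 genes. No genome was given, so motifs were searched in promoter windows in place of the planned peak windows. Counting was checked on simulated positions. Named genes were all 8 members and, of each pathway list, the 3 highest and up to 3 with no summit. Members and lists were chosen with earlier results of these data known. The values of 1 cell type marker are not reported here. Without values per library no test between samples was made. Alternatives were stricter peak sets, other loci and windows, and rules on neighbours. Python 3.11.15, pandas 2.3.3 and NumPy 2.4.6 were used.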

Additional observations from a re-analysis of the deposited data

How the results depend on the processing

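Of 43 values under alternatives, 33 stayed within 1.5 times the main count. The 24 summits became 12 with peaks at or above the median fold, 12 with peaks at or above the median −log10 q, 8 in gene bodies alone and 45 with 50 kb on each side. Genes with a locus summit fell to 3 in gene bodies alone, against 7. Genes with a start-site summit numbered 0 in either stricter set and 2 with a window of 2500 bp, where Traf1 joined Tnfrsf9, against 1. Other TNF receptor superfamily genes with a locus summit numbered 8 in the stricter set by −log10 q and 8 in gene bodies alone, against 13. Smaller sets and narrower or wider loci change these counts by construction. By the nearest protein-coding gene body 20 summits and 6 genes remained, and by the nearest start, a rule added after the data were seen, 22 and 7. The motif search of peak sequence was not run. No paired analysis was possible because peaks were called on both replicates together. Depth per library is unknown, so how many weak sites were missed cannot be given.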
